A study of Homo sapiens with 6 samples.

Results

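The 44 genes described here encode the machinery of DNA replication, from the loading of helicases at origins to fork synthesis, the supply of deoxynucleotides and the packaging of new DNA. The members were named by symbol, each was matched to a row of the count table through its Entrez ID, and all 44 of 44 were found among the 23459 genes of the table and passed the filter on low counts. They were measured by 3′ mRNA-Seq, which counts the 3′ ends of polyadenylated transcripts, in MCF10A, a line of untransformed epithelial cells from the human breast, labelled wild type in these samples. The comparison asked how mRNA levels differ when YAP and TAZ, the transcriptional coactivators controlled by the Hippo pathway, are depleted. A set of 3 libraries came from cells given a non-targeting control siRNA (siCtrl) and 3 from cells given siRNA against both coactivators (siYAP/TAZ), each at 20 nM with a lipid reagent and with 0.5 µg of RNA per library. Both groups were therefore transfected, and no untransfected cells were included. The labels give neither the time after transfection nor the source of each replicate, and the study's methods describe its RNA-Seq replicates as biological without saying more.

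In G1, the origin recognition complex, CDC6 and CDT1 load the MCM2 to MCM7 ring onto DNA. On entry into S phase the ring is switched on by CDC45, GINS and MCM10, and polymerases with their clamp and clamp loader copy both strands. Many of these genes are textbook targets of the E2F transcription factors and their mRNAs peak around the start of S phase, whereas mRNAs of mitotic genes peak later, in G2 and M. In bulk libraries, fewer cells in S phase and less replication mRNA in each cell cannot be told apart.

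The labels of 2 libraries conflict. Groups follow the descriptions, which also head the columns of the count table, while the title and genotype of siCtrl replicate 2 read siYAP/TAZ and those of siYAP/TAZ replicate 2 read control. The targeted genes followed the descriptions. YAP1 was at 189, 204 and 210 CPM (counts scaled to a common library total) in siCtrl replicates 1, 2 and 3 and at 116, 118 and 112 CPM in siYAP/TAZ replicates 1, 2 and 3. WWTR1, which encodes TAZ, was at 109, 109 and 102 CPM against 70.5, 67.1 and 59.8 CPM. The groups did not overlap for either gene, and both were lower after siYAP/TAZ by the quasi-likelihood test of edgeR with Benjamini-Hochberg adjustment over all 12510 tested genes, YAP1 with a log2 fold change of -0.80 (adjusted p = 0.0138, SE 0.12) and WWTR1 with -0.69 (SE 0.13, adjusted p = 0.0311). The YAP1 call was lost without siCtrl replicate 3 or either of siYAP/TAZ replicates 2 and 3 (adjusted p = 0.0988, 0.0606 and 0.112), and that of WWTR1 without any 1 library except siCtrl replicate 2 (adjusted p between 0.0602 and 0.176). Library totals ran from 3175149 to 4317286 counts, and the 3 counts that a value of 0 allows correspond to 0.680 to 0.992 CPM (counting error only). All 12 of 12 mammary epithelial markers were detected in each library, with a summed level of 2219 to 2728 CPM in siCtrl and 1887 to 2180 CPM in siYAP/TAZ. In a principal component analysis siCtrl replicate 2 stood apart from the other controls, at 7.15 on the first component (48.4% of variance) where siCtrl replicates 1 and 3 lay at -42.6 and -34.9 and the knockdowns between 9.77 and 33.7. The counts of members called are therefore given both with and without this library.

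As a sum, the replication genes were low in all 3 siYAP/TAZ libraries and in siCtrl replicate 2, and high in siCtrl replicates 1 and 3. The summed level of the 44 genes was 2888, 1457 and 2602 CPM in siCtrl replicates 1, 2 and 3 and 1854, 1303 and 1540 CPM in siYAP/TAZ replicates 1, 2 and 3. The groups therefore overlapped through siCtrl replicate 2, which lay below siYAP/TAZ replicates 1 and 3. As group means, the sums were 2316 ± 758 CPM in siCtrl and 1566 ± 276 CPM in siYAP/TAZ (SD, n = 3 each), or 67.6% of siCtrl, and 57.0% of the mean of siCtrl replicates 1 and 3. Within replicate numbers, the siYAP/TAZ sum was 64.2%, 89.5% and 59.2% of the siCtrl sum for numbers 1, 2 and 3.

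No member passed the test with all 6 libraries, against 1.22% of all tested genes called lower and 0.743% called higher. The smallest adjusted p of edgeR's quasi-likelihood test among the members was 0.0680. At an unadjusted p under 0.05, 14 members were lower and 0 higher, against 9.27% and 8.4% of all genes in the same directions, and DESeq2 called 2 members lower and 0 higher (backgrounds 2.57% and 1.96%), as did edgeR with no low-count filter (1.56% and 1.34%). Both times these were MCM7 and RRM1. The fitted log2 fold change was below 0 for 43 of the 44 members, with a median of -0.65 (quartiles -0.87 and -0.47) beside -0.00093 over all tested genes. ORC1 was the exception.

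Leaving siCtrl replicate 2 out, 25 members passed as lower and 0 as higher. The backgrounds were 6.22% and 6.08% of the 12836 genes then tested, and the median log2 fold change of the 44 was -0.95. That library was the lowest control in 41 of the 44 members, and leaving it out raises their control mean. The count of 25 depends on that choice and is no separate support. Leaving out any other 1 library gave 0. With the replicate number as a block, 11 passed as lower and 0 as higher, against 5.44% and 4.66%. Of these, 10 were called both ways: CDC45, GINS1, GINS2, MCM7, POLE, PRIM2, RFC3, RRM1, RRM2 and TYMS. RFC5 was called with the block only. The labels do not say that equal numbers were paired, and the block rests on correlations in these same libraries. Without both libraries whose labels disagree, 15 members were called lower and 0 higher (backgrounds 4.64% and 4.65%), and with the groups of the titles none was.

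**Figure D1:**
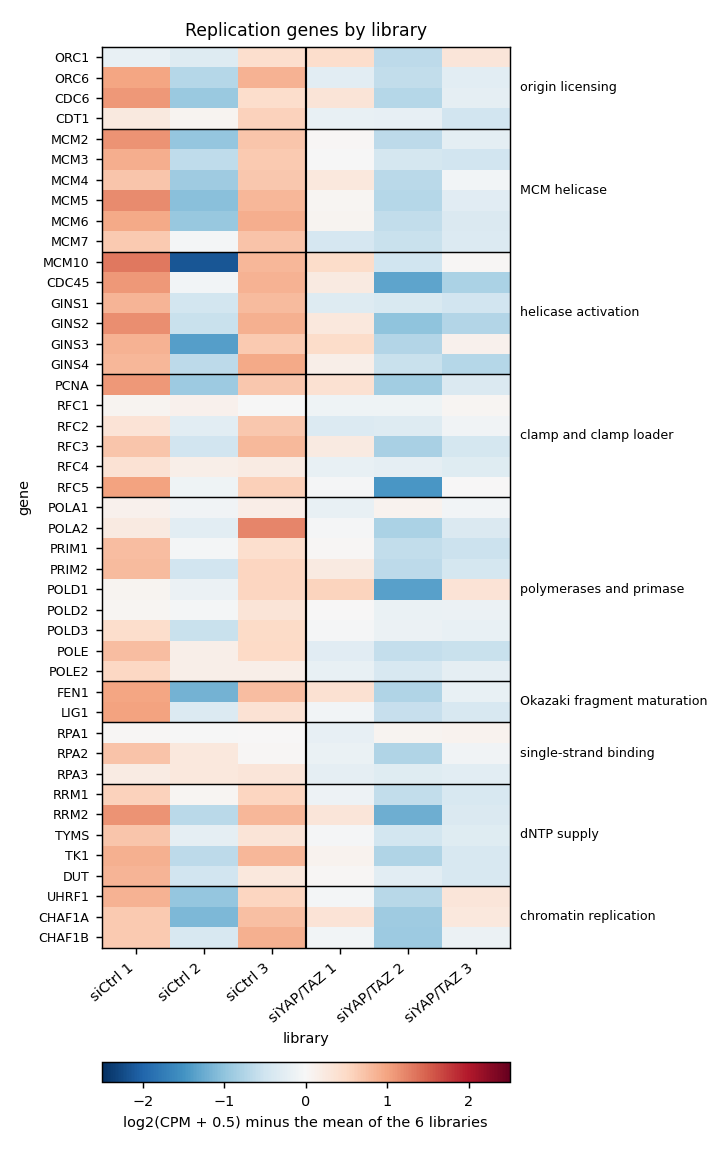
Level of the 44 replication genes in each of the 6 libraries, as log2(CPM + 0.5) minus the gene's mean over the libraries, with genes in rows grouped by role and a vertical line between siCtrl and siYAP/TAZ. siCtrl replicate 2 was below siCtrl replicates 1 and 3 in 41 of 44 genes, and MCM10 in that library is the darkest cell.

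The position of siCtrl replicate 2 was shared by most members. It was the lowest of the 3 siCtrl libraries in 41 of 44 genes, against 39.7% of all tested genes, and its level was a median of 46.3% of the mean of siCtrl replicates 1 and 3, with a range from 9.86% for MCM10 to 106% for RFC1. Over the siYAP/TAZ libraries the same median was 50.6%, from 33.9% for CDC45 to 97.4% for RPA1. siCtrl replicate 2 lay below every siYAP/TAZ library in 15 of 44 members, near the background of 29.9% of all tested genes, within their range in 20 and above them all in 9 (5059 and 3707 of all 12510 genes). The groups did not overlap in 8 of the 44 members, all with siYAP/TAZ lower, against 11.1% of all genes in that direction. All 8 were among these 9. These 8 were CDT1, MCM7, RFC4, POLE, POLE2, RPA2, RPA3 and RRM1. All siYAP/TAZ libraries lay below both siCtrl replicates 1 and 3 in 40 of 44, against 22.8% of all genes.

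Replicate number 2 was also low among the knockdowns. siYAP/TAZ replicate 2 was the lowest siYAP/TAZ library in 33 of 44 members, against 36.3% of all tested genes. Number 2 was lowest in both groups in 31, or 70.5%, against 19.2% of all tested genes. siYAP/TAZ replicate 1 was the highest of its group in 36 of 44, against 36.2% of all tested genes. Mitotic genes shared both positions, with number 2 lowest in both groups in 15 of 20 (75%) and siYAP/TAZ replicate 1 the highest of its group in 19. Both libraries numbered 2 are those whose labels conflict, and the part of that conflict in these levels was not tested.

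**Figure D2:**
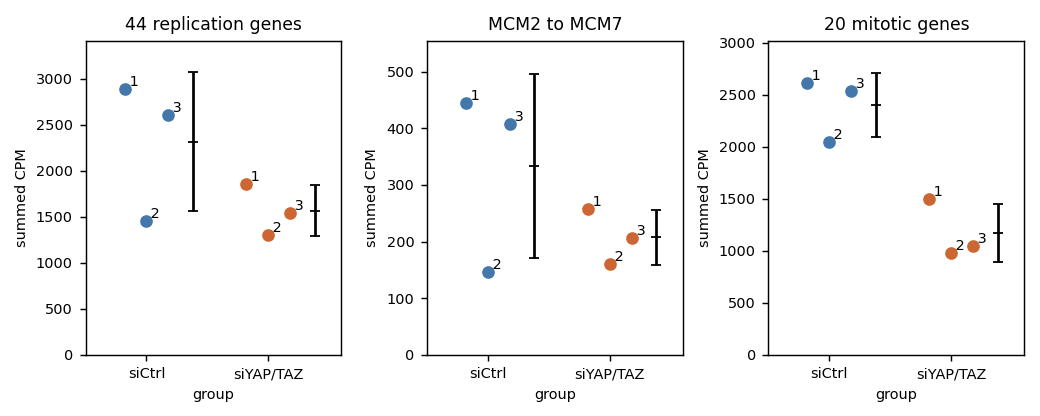
Summed CPM of the 44 replication genes, of MCM2 to MCM7 and of 20 mitotic genes in each library, with the replicate number beside each point and the mean ± SD of each group (n = 3) as a bar. siCtrl replicate 2 lies among the siYAP/TAZ libraries for the 44 genes (1457 CPM), below all of them for MCM2 to MCM7 (147 CPM) and above all of them for mitotic genes (2045 CPM).

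Mitotic genes had the same order of libraries within each group, number 1 highest and number 2 lowest by their sum, but siCtrl replicate 2 lay above the knockdowns. A list of 20 genes of mitotic entry, spindle and cytokinesis summed to 2608, 2045 and 2538 CPM in siCtrl, against 1493, 981 and 1044 CPM in siYAP/TAZ, so that the groups did not overlap. siCtrl replicate 2 held 79.5% of the mean of siCtrl replicates 1 and 3 for these genes but 53.1% for the replication genes and 34.4% for MCM2 to MCM7. The ratio of the replication sum to the mitotic sum was 1.11, 0.712 and 1.03 in siCtrl, against 1.24, 1.33 and 1.47 in siYAP/TAZ, so that it was lowest in siCtrl replicate 2 and higher in each siYAP/TAZ library than in any control. CENPF, a kinetochore protein, was at 619, 630 and 665 CPM in siCtrl, against 365, 295 and 258 CPM in siYAP/TAZ, and BUB1, a kinase of the spindle checkpoint, at 80.7, 63.3 and 80.9 against 40.6, 27.4 and 22.3 CPM. With all 6 libraries 10 of the 20 mitotic genes passed as lower, against 1.22% of all tested genes. In edgeR's test CENPF changed by -1.06 (SE 0.16, adjusted p = 0.0138) and BUB1 by -1.31 (SE 0.22, adjusted p = 0.0225) on the log2 scale. Of the 20, all passed without siCtrl replicate 2 or with the block, against 6.22% and 5.44% of all tested genes. Only 0 or 1 passed when replicate 1 or 3 of siCtrl or replicate 2 or 3 of siYAP/TAZ was left out. The list was written with the genes lowered in these libraries known. Its count, its sums and the ratio that divides by them are therefore not independent evidence of direction. The difference between the lists was not tested.

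Promoters of many members held letters bound by E2F proteins. The members were not chosen by sequence, but many are textbook E2F targets. The share with these letters is therefore not independent of the choice of genes. RefSeq start sites on GRCh38.p14 were held for 38 of the 44 members, and windows from 250 bases before to 50 bases after each start were searched on both strands for TTCCCGC or TTGGCGC, letters bound by E2F proteins. At least 1 start carried a match in 28 of 38 members, or 73.7%, against 11% of all 27305 genes and 2 of 16 mitotic genes (12.5%). Counted per start, this was 55.8% of 52 against 9.23% of 35116. Related lists described below also held many genes with these letters, 14 of 40 further replication genes (35%) and 9 of 18 E2F-related regulators (50%). The CHR letters TTTGAA or TTCGAA, known from mitotic genes, gave the reverse order, with 3 of 38 members (7.89%, DUT, MCM6 and RRM1), 12 of 16 mitotic genes (75%) and 19.5% of all genes. CCAAT, the letters bound by NF-Y, was found in 60.5% of members, 81.2% of mitotic genes and 39.7% of all genes, and it can overlap an E2F match written GCGCCAAT. The TEAD letters GGAATG, through which YAP and TAZ act, were found in 7 of 38 members (18.4%) against 16.7% of all genes, and the AP-1 letters TGANTCA in GINS1 alone (2.63% against 9.37%). A match is a description of the letters and not of binding, and a window without one says nothing about the factor.

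Below are the 250 bases before the start for a helicase subunit (MCM6), the leading-strand polymerase (POLE), the large subunit of ribonucleotide reductase (RRM1), the member lowest in siCtrl replicate 2 relative to the other controls (MCM10) and a member with nearly equal levels in both groups (POLA1), with E2F letters on either strand in capitals. The windows are chr2:135876444-135876693 on the minus strand for MCM6, chr12:132687343-132687592 on the minus strand for POLE, chr11:4094435-4094684 on the plus strand for RRM1, chr10:13161308-13161557 on the plus strand for MCM10 and chrX:24693668-24693917 on the plus strand for POLA1, all on GRCh38.p14 and written 5′ to 3′ along the gene.
MCM6: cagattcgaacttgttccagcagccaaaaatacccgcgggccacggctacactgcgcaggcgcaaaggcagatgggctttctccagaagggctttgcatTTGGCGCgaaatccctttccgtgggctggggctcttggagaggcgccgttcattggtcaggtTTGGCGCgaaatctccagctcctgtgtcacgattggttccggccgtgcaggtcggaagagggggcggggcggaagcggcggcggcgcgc
POLE: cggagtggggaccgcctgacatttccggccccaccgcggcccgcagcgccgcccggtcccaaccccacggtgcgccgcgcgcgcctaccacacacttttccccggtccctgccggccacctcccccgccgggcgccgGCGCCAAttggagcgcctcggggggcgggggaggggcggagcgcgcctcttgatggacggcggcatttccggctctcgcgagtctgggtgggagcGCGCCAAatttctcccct
RRM1: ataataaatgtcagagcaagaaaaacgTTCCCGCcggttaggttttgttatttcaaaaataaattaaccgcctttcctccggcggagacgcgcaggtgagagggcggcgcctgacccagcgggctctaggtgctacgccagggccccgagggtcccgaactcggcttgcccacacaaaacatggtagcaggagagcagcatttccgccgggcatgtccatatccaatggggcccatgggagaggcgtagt
MCM10: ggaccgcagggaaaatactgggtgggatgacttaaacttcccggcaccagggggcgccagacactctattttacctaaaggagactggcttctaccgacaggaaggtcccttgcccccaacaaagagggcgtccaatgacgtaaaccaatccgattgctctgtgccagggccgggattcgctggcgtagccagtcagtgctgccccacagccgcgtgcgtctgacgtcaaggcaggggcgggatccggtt
POLA1: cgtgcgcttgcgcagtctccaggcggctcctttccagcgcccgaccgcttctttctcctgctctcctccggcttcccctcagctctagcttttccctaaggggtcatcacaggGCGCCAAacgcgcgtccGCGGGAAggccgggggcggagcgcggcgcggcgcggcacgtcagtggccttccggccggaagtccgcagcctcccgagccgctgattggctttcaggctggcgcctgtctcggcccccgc
Matches began 151 and 89 bases before the start in MCM6, 113 and 18 in POLE, 223 in RRM1 and 137 and 120 in POLA1, while MCM10 had none in this window. The full searched window of POLA1 held 3 matches, and only those listed lie wholly within the printed bases. Members with and without a match had similar values. The median log2 fold change was -0.66 over the 28 members with a match and -0.70 over the 10 without, and the median level of siCtrl replicate 2 was 46.8% and 45.6% of siCtrl replicates 1 and 3.

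**Figure D3:**
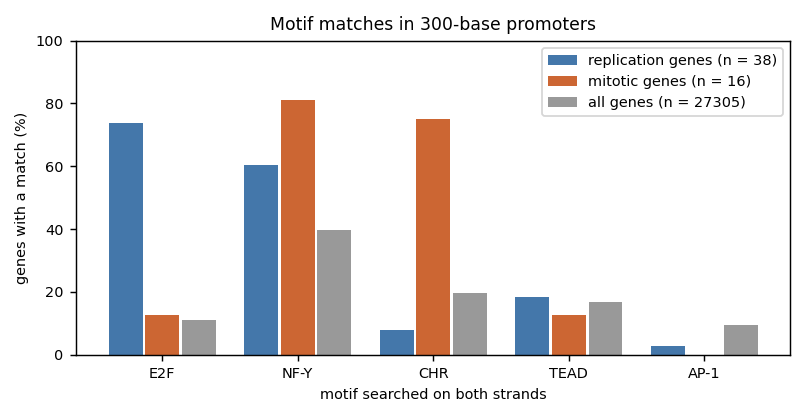
Share of genes with at least 1 start site whose promoter window (250 bases before to 50 after the start) holds each motif, for the 38 replication genes and 16 mitotic genes with a listed start and for all 27305 genes. E2F letters were in 73.7% of replication genes and CHR letters in 75% of mitotic genes.

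Origin licensing is carried out by the origin recognition complex with CDC6 and CDT1. In this group 0 of 4 genes passed with all libraries or the block, with 1 of 4 (ORC6) passing without siCtrl replicate 2. ORC6 (Entrez 23594, chr16:46723555-46732306, GRCh37 as for every gene position below), a subunit of the origin recognition complex, was at 43.1, 13 and 39.5 CPM in siCtrl, against 17.7, 13.9 and 17.7 CPM in siYAP/TAZ. siCtrl replicate 2 was the lowest of all 6 libraries, and both other controls were above every knockdown. Its log2 fold change was -0.95 (adjusted p = 0.235, SE 0.38, edgeR), and -1.32 (SE 0.19, adjusted p = 0.00249) without siCtrl replicate 2. CDT1 (Entrez 81620, chr16:88870197-88875666), which brings the MCM ring to the origin, was at 15.2, 13.3 and 19.1 CPM against 11.1, 10.9 and 8.98 CPM. Its groups did not overlap, but the difference did not pass (log2 fold change -0.62, SE 0.24, adjusted p = 0.222, and 0.0797 without siCtrl replicate 2). ORC1 (Entrez 4998, chr1:52838501-52870095), the largest subunit of the recognition complex, was the only member fitted above 0, at 7.47, 6.79 and 11.6 CPM against 11.8, 5.29 and 10.6 CPM. The groups overlapped fully, with a log2 fold change of 0.11 (adjusted p = 0.902, SE 0.35) that was -0.024 without siCtrl replicate 2. CDC6, the ATPase that completes ring loading, did not pass in these 3 fits, with 41.4, 9.87 and 26.4 CPM against 24.3, 11.6 and 16.3 CPM.

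The 6 subunits of the MCM ring shared largely one order of libraries. Their sum was 446, 147 and 409 CPM in siCtrl, against 257, 160 and 206 CPM in siYAP/TAZ, and siCtrl replicate 2 was below every siYAP/TAZ library for 5 of the 6 subunits. All 6 passed as lower without siCtrl replicate 2, 1 of 6 (MCM7) with the block and 0 of 6 with all libraries. The median of the 6 log2 fold changes was -0.80, and -1.16 without siCtrl replicate 2. Within replicate numbers 1, 2 and 3, the median difference between siYAP/TAZ and siCtrl was -1.0, 0.26 and -1.08 on the log2(CPM + 0.5) scale, with 6, 1 and 6 subunits lower.

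MCM7 (Entrez 4176, chr7:99689856-99699563) differed from its partners in that siCtrl replicate 2 remained above the knockdowns. It was at 53.7, 32.4 and 55.5 CPM in siCtrl, against 24.9, 22.8 and 26.7 CPM in siYAP/TAZ. The groups did not overlap, and its log2 fold change of -0.93 (SE 0.22) had the smallest adjusted p of all members in edgeR's test (0.0680), with 0.00838 under the block and 0.00231 without siCtrl replicate 2. As a share of the ring's summed CPM, MCM7 was 12.05%, 22.1% and 13.6% in siCtrl and 9.69%, 14.3% and 12.9% in siYAP/TAZ, highest in siCtrl replicate 2. MCM4 (Entrez 4173), the subunit with the highest level in this group, was at 141, 46.6 and 138 CPM against 105, 53.9 and 83.2 CPM. siCtrl replicate 2 was the lowest library, and the log2 fold change moved from -0.42 (SE 0.38, adjusted p = 0.608) to -0.78 (SE 0.22, adjusted p = 0.0414) without it. MCM6 (Entrez 4175, chr2:136597196-136634013), whose promoter is shown above, was at 87.9, 23.1 and 85.9 CPM against 47.6, 29.4 and 35.1 CPM, with an adjusted p of 0.346, and 0.00358 without siCtrl replicate 2. MCM2, MCM3 and MCM5 were likewise lowest in siCtrl replicate 2, at 26.4%, 36.9% and 22.1% of the other controls. For MCM2, a long non-coding RNA on the opposite strand shares 774 exon bases within the last 1000 genomic bases of the gene. MCM2 counts are therefore uncertain.

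**Figure D4:**
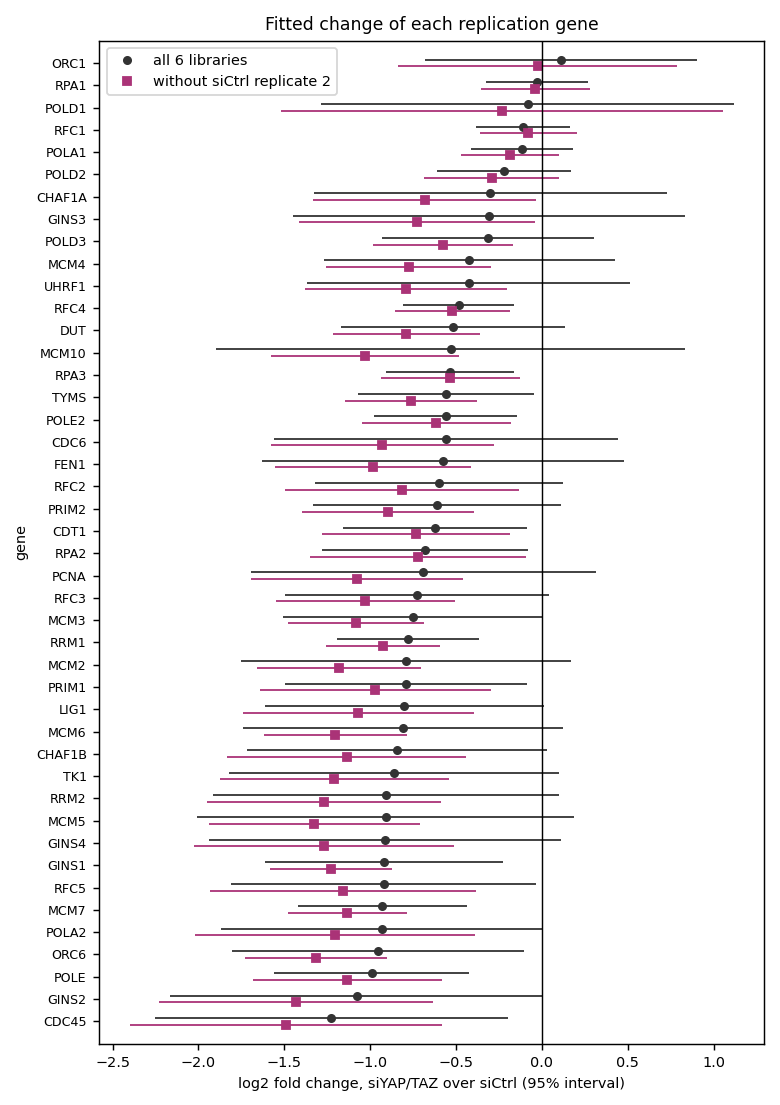
Fitted log2 fold change of each replication gene (siYAP/TAZ over siCtrl) with its 95% interval, from edgeR with all 6 libraries (circles) and without siCtrl replicate 2 (squares), ordered by the first. All but ORC1 lie below 0 with 6 libraries, and the median moves from -0.65 to -0.95 without siCtrl replicate 2.

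The loaded ring becomes an active helicase when CDC45 and the 4 GINS proteins bind it and MCM10 starts its unwinding. This group held the lowest value of siCtrl replicate 2 and the largest fitted changes. Without that library 5 of 6 genes passed as lower (all but GINS3), with the block 3 of 6 and with all libraries 0 of 6, and the median log2 fold change was -0.92. The counts of GINS4, one of the 5, are uncertain. A long non-coding RNA on the opposite strand covers 1000 of the last 1000 genomic bases of the gene. MCM10 (Entrez 55388, chr10:13203558-13253110) was at 72.9, 6.17 and 52.3 CPM in siCtrl, against 40.3, 20.5 and 29.6 CPM in siYAP/TAZ. siCtrl replicate 2 was 9.86% of the other controls and below every knockdown, and the SE of the log2 fold change was 0.61 (-0.53, adjusted p = 0.700) with it and 0.25 (-1.03, adjusted p = 0.0229) without. With siCtrl replicate 1 left out instead, the value was 0.033.

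GINS1 (Entrez 9837, chr20:25371644-25433336), a core GINS subunit, was at 51.4, 20.4 and 49.0 CPM against 22.4, 21.5 and 20.1 CPM. The 3 knockdowns and siCtrl replicate 2 lay within a narrow band, well below the other controls. Its log2 fold change was -0.92 (adjusted p = 0.168, SE 0.31), with adjusted p of 0.04999 under the block and 0.00171 without siCtrl replicate 2, although 259 of its last 1000 bases face exons of NINL on the other strand. CDC45 (Entrez 8318, chr22:19466980-19508135) was at 14.4, 6.17 and 12.3 CPM against 7.71, 2.31 and 3.54 CPM. Only siCtrl replicate 2 fell within the knockdown range, and the fitted change was the largest of all members at -1.23 (SE 0.46, adjusted p = 0.213, with 0.0241 under the block and 0.0393 without siCtrl replicate 2). GINS2 (Entrez 51659, chr16:85709804-85723679) followed, with 19.5, 5.55 and 16.1 CPM against 10.2, 3.97 and 4.90 CPM. Its log2 fold change of -1.08 (adjusted p = 0.285, SE 0.48) also passed with the block (0.0388) and without siCtrl replicate 2 (0.0274). Counts were low for both genes, 7 to 50 per library for CDC45 and 12 to 68 for GINS2.

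PCNA is the sliding clamp that tethers polymerases to DNA, and replication factor C loads it. Members of the loader differed among themselves, and 3 of the 6 genes passed as lower without siCtrl replicate 2 (PCNA, RFC3 and RFC4), 2 with the block (RFC3 and RFC5) and 0 with all libraries. PCNA (Entrez 5111, chr20:5095599-5107272) was at 252, 63.3 and 189 CPM in siCtrl, against 154, 64.8 and 91.9 CPM in siYAP/TAZ. Number 2 was lowest in both groups, at nearly equal levels, and the log2 fold change was -0.69 (adjusted p = 0.459, SE 0.45), or -1.08 (SE 0.28, adjusted p = 0.0310) without siCtrl replicate 2. As 4 pseudogenes are named for PCNA, part of its reads may be split. In RFC5, 186 of the last 1000 bases face exons of WSB2 on the other strand. RFC4 (Entrez 5984, chr3:186507669-186524847), a small subunit of the loader, was at 52.8, 46.0 and 47.7 CPM against 36.3, 35.4 and 33.2 CPM. Its groups were tight and did not overlap, with a log2 fold change of -0.48 (adjusted p = 0.124, SE 0.14, and 0.0487 without siCtrl replicate 2). RFC1, the large subunit, stayed between 117 and 128 CPM in siCtrl and between 109 and 122.7 CPM in siYAP/TAZ (log2 fold change -0.11, 95% interval -0.38 to 0.16, and -0.079 without siCtrl replicate 2). RFC3 was at 172, 75.6 and 186 CPM against 124, 59.8 and 77.5 CPM, so that the ratio of RFC1 to RFC3, 0.725, 1.69 and 0.628 in siCtrl, against 0.883, 1.85 and 1.58 in siYAP/TAZ, was high in siCtrl replicate 2.

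Among the polymerases and primase, the catalytic subunit of the leading-strand enzyme did not overlap between the groups and that of polymerase alpha, the partner of primase, did. POLE (Entrez 5426, chr12:133200339-133263962) was at 21.3, 13.6 and 17.3 CPM in siCtrl, against 9.97, 7.93 and 8.16 CPM in siYAP/TAZ. Every knockdown lay below every control, and the log2 fold change of -0.99 (SE 0.25) had an adjusted p of 0.0811, with 0.0214 under the block and 0.0156 without siCtrl replicate 2. POLA1 (Entrez 5422, chrX:24711990-25015103), the catalytic subunit of polymerase alpha, was at 165, 144 and 171 CPM against 135, 162 and 146 CPM. These values overlapped, with a log2 fold change of -0.12 (95% interval -0.41 to 0.18, adjusted p = 0.699) that was -0.19 (adjusted p = 0.394) without siCtrl replicate 2. PRIM2, the regulatory primase subunit, was at 108, 45.1 and 91.7 CPM against 73.7, 39.7 and 46.2 CPM and passed with the block (adjusted p = 0.0398) and without siCtrl replicate 2 (0.0280), but a named pseudogene copy overlaps it on the same strand. The ratio of POLA1 to PRIM2 was 1.53, 3.19 and 1.87 in siCtrl, against 1.83, 4.09 and 3.16 in siYAP/TAZ. POLE2, a partner of POLE, had groups that did not overlap but an adjusted p of 0.164, and 0.0654 without siCtrl replicate 2. POLD1, the catalytic subunit of the lagging-strand polymerase, was at 0.661 to 3.85 CPM over the 6 libraries, or 2 to 17 counts. Its log2 fold change was -0.082 with a wide 95% interval of -1.28 to 1.12, and -0.23 without siCtrl replicate 2. Of the 9 genes, 2 (POLE and PRIM2) passed without siCtrl replicate 2 and with the block.

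**Figure D5:**
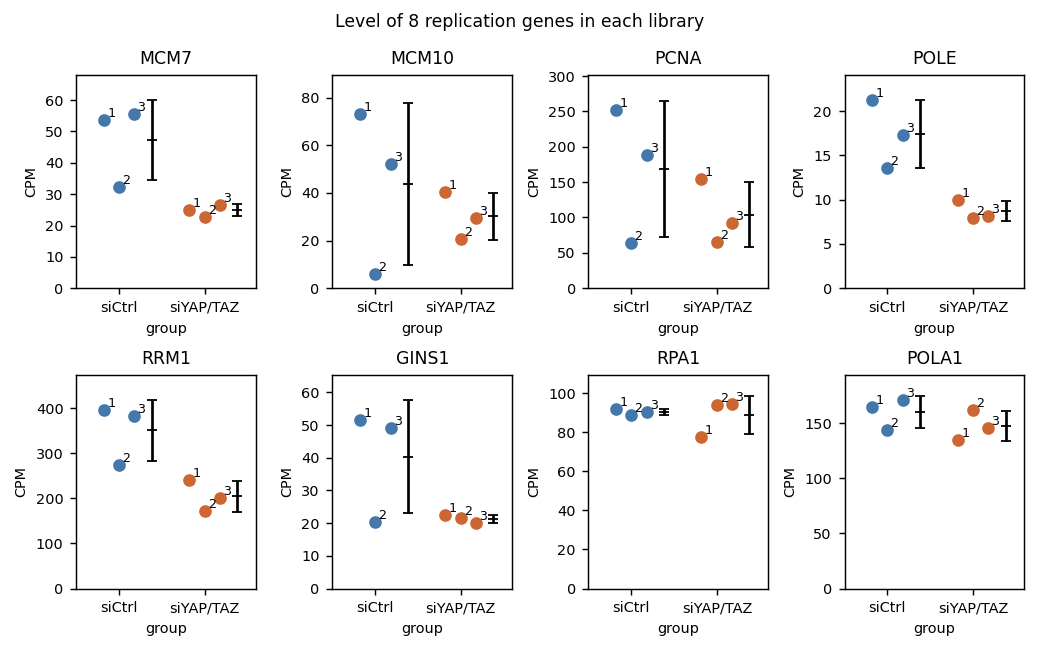
CPM of 8 replication genes in each library, with the replicate number beside each point and the mean ± SD of each group (n = 3) as a bar. MCM7, POLE and RRM1 have groups that do not overlap, MCM10, PCNA and GINS1 have siCtrl replicate 2 within or below the knockdown range, and RPA1 and POLA1 overlap.

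Okazaki fragments are trimmed by the flap nuclease FEN1 and joined by DNA ligase LIG1. Both passed as lower without siCtrl replicate 2, and neither with all libraries or the block. FEN1 (Entrez 2237, chr11:61560383-61564710) was at 66.3, 14.5 and 57.3 CPM in siCtrl, against 43.5, 19.5 and 29.1 CPM in siYAP/TAZ. siCtrl replicate 2 was the lowest library, and the log2 fold change was -0.58 (adjusted p = 0.570, SE 0.47) with it and -0.98 (SE 0.26, adjusted p = 0.0321) without it. LIG1 (Entrez 3978, chr19:48618702-48673860) was at 18.7, 7.10 and 11.8 CPM against 8.61, 5.95 and 6.80 CPM. Here siCtrl replicate 2 lay inside the knockdown range, and the adjusted p was 0.287 (log2 fold change -0.80, SE 0.36) and 0.0450 without it.

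Replication protein A, which coats single-stranded DNA, was the role group nearest to the other controls in siCtrl replicate 2. Its 3 subunits held 96.8% of the summed level of the other controls in that library, and 0 of 3 passed in any of these fits. RPA1 (Entrez 6117, chr17:1732996-1803376), the large subunit, was at 91.6, 88.6 and 90.5 CPM in siCtrl, against 77.5, 93.9 and 94.6 CPM in siYAP/TAZ. These values overlapped, with a log2 fold change of -0.026 and a 95% interval of -0.32 to 0.27, and -0.038 without siCtrl replicate 2. RPA3 (Entrez 6119, chr7:7676149-7758238), the small subunit, was at 27.3, 28.4 and 29.1 CPM against 19.9, 18.8 and 19.6 CPM. Its groups did not overlap and varied little within themselves, but at a log2 fold change of -0.54 (SE 0.17) the adjusted p was 0.138, and 0.0840 without siCtrl replicate 2. RPA2 also had groups that did not overlap, with an adjusted p of 0.232, and 0.128 without siCtrl replicate 2. RPA2 and RPA3 have 3 and 2 named pseudogenes.

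Deoxynucleotides for the fork come from ribonucleotide reductase, thymidylate synthase, thymidine kinase and dUTPase. All 5 genes passed as lower without siCtrl replicate 2, and 3 of 5 (RRM1, RRM2 and TYMS) with the block. RRM1 (Entrez 6240, chr11:4115937-4160162), the large reductase subunit, had the highest 3′ count of all members at 395, 273 and 383 CPM in siCtrl, against 241, 172 and 201 CPM in siYAP/TAZ. Every knockdown lay below every control. The log2 fold change was -0.78 (adjusted p = 0.0681, SE 0.18), with adjusted p of 0.00205 under the block and 0.00416 without siCtrl replicate 2. RRM2, the small subunit that is made and destroyed with the cell cycle, was at 146, 42.0 and 119 CPM against 82.3, 28.4 and 51.7 CPM. The ratio of RRM1 to RRM2 was 2.71, 6.50 and 3.22 in siCtrl, against 2.93, 6.03 and 3.88 in siYAP/TAZ, and it was highest in replicate number 2 of both groups. RRM2 passed with the block (adjusted p = 0.00402) and without siCtrl replicate 2 (0.0236) but not with all libraries (0.330). TYMS counts are uncertain, since 719 of its last 1000 bases face exons of ENOSF1, and DUT and RRM2 have 8 and 3 named pseudogenes.

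Behind the fork, the CAF-1 subunits CHAF1A and CHAF1B deposit histones and UHRF1 guides maintenance of DNA methylation. Without siCtrl replicate 2, 1 of 3 genes passed (CHAF1B), and 0 of 3 in the other 2 fits. CHAF1B (Entrez 8208, chr21:37757690-37791313) was at 12.6, 5.86 and 15.1 CPM in siCtrl, against 7.48, 3.97 and 7.07 CPM in siYAP/TAZ. siCtrl replicate 2 lay inside the knockdown range, and the log2 fold change was -0.84 (adjusted p = 0.296, SE 0.39), with 0.0401 without that library. CHAF1A (Entrez 10036, chr19:4402637-4445015) was at 31.6, 8.95 and 33.9 CPM against 25.4, 10.6 and 24.2 CPM. Number 2 was lowest in both groups, and the log2 fold change was -0.30 (adjusted p = 0.781, SE 0.46, and 0.160 without siCtrl replicate 2). UHRF1 also had number 2 lowest in both groups, with 36.2, 9.87 and 28.6 CPM against 19.0, 11.9 and 24.5 CPM.

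Beyond the 44 members, 47 of 48 further replication genes were tested (CHTF18 was below the filter). With all libraries 2 of 47 passed as lower and 0 as higher, against 1.22% and 0.743% of all tested genes. Their median log2 fold change was -0.45. TOP2A, the topoisomerase that untangles replicated chromosomes, was at 550, 548 and 604 CPM in siCtrl, against 374, 267 and 304 CPM in siYAP/TAZ, and MCM8, an MCM relative used in recombination, at 45.4, 39.5 and 45.5 against 27, 20.5 and 24.2 CPM. siCtrl replicate 2 was above every knockdown for both, and both fell in siYAP/TAZ, TOP2A by -0.85 (SE 0.15, adjusted p = 0.0303) and MCM8 by -0.86 (SE 0.17, adjusted p = 0.0358), with adjusted p of 0.00615 and 0.00800 without siCtrl replicate 2. At most 1 of the 47 passed without any 1 library other than siCtrl replicate 2. Without siCtrl replicate 2, 18 of the 47 passed as lower, against 6.22% of all tested genes. With the block 12 passed as lower and 1, the mitochondrial thymidine kinase TK2, as higher, against 5.44% and 4.66%.

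Listed were 23 genes of E2F proteins, their partners and repressors, and the S phase cyclins and kinases that act on them. With all 6 libraries 19 reached edgeR's filter, all but E2F1, E2F2, E2F8 and LIN37. None of the 19 passed (1.22% of all tested genes were called lower), with a smallest adjusted p of 0.0633 by edgeR. At an unadjusted p under 0.05, 4 were lower (9.27% of all genes). With the block 3 of 19 passed as lower (CDK2, E2F7 and MYBL2, against 5.44%). Without siCtrl replicate 2, 22 genes of the list were tested and 6 passed as lower (against 6.22%). DESeq2 gave a p-value for all 23 and called 2 lower. Its background of 2.57% is over the 12933 genes that had an adjusted p. CDK2, the kinase of S phase entry, was at 64.3, 44.1 and 73.9 CPM against 34.0, 33.4 and 34.3 CPM. Its groups did not overlap, and siCtrl replicate 2 was the lowest control (adjusted p = 0.0633 by edgeR, and 0.00254 without it). MYBL2, the MYB protein that takes part in activating mitotic genes, was at 58.0, 25.6 and 61.3 CPM against 29.9, 17.5 and 20.4 CPM, with siCtrl replicate 2 inside the knockdown range (adjusted p = 0.128 by edgeR, and 0.00316 without it).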

How the data were processed

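3′ mRNA-Seq libraries (QuantSeq FWD) of MCF10A cells were analysed, 3 siCtrl and 3 siYAP/TAZ. The authors deposited 1 table of raw read counts per Entrez gene, not normalised. The submitters' processing notes name cutadapt 4.2, Bowtie2 2.3.5.1 and hg19. The study describes counting of reads over genes in R for RNA-Seq in general, while annotation and strand use for these libraries are not given in the sources used here. Without strand, reads of genes that face each other cannot be told apart. The table held 0 unnamed rows, and 23308 IDs (99.7% of counts) matched a RefSeq symbol (GRCh38.p14, names and promoters only). Gene positions are from GENCODE on GRCh37.

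Counts were fitted with edgeR 4.0.16 (R 4.3.3) by the quasi-likelihood F test with the default filter, TMM scaling and group as the only term, with Benjamini-Hochberg adjustment over 12510 genes and a threshold of 0.05. CPM are TMM-scaled, errors are SD over 3 libraries, and within-number differences used log2(CPM + 0.5). No list was tested as a set, and 3 against 3 libraries cannot go below p = 0.1 in an exact permutation test. Each result was recomputed with DESeq2 1.42.0, with RLE factors, with library size only, without a filter, over genes averaging 50 counts or more, with robust dispersions, with a replicate block, with each library left out, with the groups of the titles, and without both libraries with conflicting labels. Deviations from group means correlated between same-numbered libraries (r over genes 0.416, 0.346 and 0.129 for numbers 1, 2 and 3), each above 0.1. The numbers of the description field were used as pairs only in the block fit and in the within-number differences. The main fit was unpaired. The labels state no pairing, and these correlations come from the same libraries. Within-group chi-square per degree of freedom was 5.76 to 18.9, so no library was a repeat of another. The fit was tested on simulated data. Named in each of 9 role groups were the member with the smallest p and that with the highest mean CPM, then members of opposite sign to the median, the 3 largest changes, and from other lists the 2 with the smallest p and any called against the list's direction. MCM6 and other members given outside this rule were chosen after their values were seen. The members and all lists were chosen with earlier results of these data known, so their counts are no independent support.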

Additional observations from a re-analysis of the deposited data

How the results depend on the processing

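The median log2 fold change of the members stayed within the replicate spread in all 15 alternatives. That yardstick is wide and admits medians from -0.95 to -0.45, so it is a weak check. The fit over genes averaging 50 counts or more tested only 29 of the 44. That spread, 0.38, is the SD of the members' median within-number differences (-0.71, -0.15 and -0.87 for numbers 1, 2 and 3). The median lay between -0.95 and -0.45 over the fits that left out 1 library, and 0 members were called higher in any alternative. The count of members called lower was 0 with all libraries, 2 with DESeq2, 2 with no low-count filter, 11 with the replicate block, 15 without the 2 libraries whose labels disagree, and 0 to 25 with 1 library left out, where the 25 came without siCtrl replicate 2 and the other 5 fits gave 0. Over all genes, those called lower and higher were 333 and 254 with DESeq2, 299 and 257 with no filter, 680 and 583 with the block, 591 and 592 without the disputed libraries and 0 and 0 by title, against 152 and 93, with ranges of 10 to 798 and 6 to 781 with 1 library left out. Mitotic genes called lower numbered 18 with DESeq2, 17 with no filter, 20 with the block, 19 without the disputed libraries, 0 by title and 0 to 20 with 1 library left out. Further replication genes numbered 1 with library size alone, 12 with the block, 16 without the disputed libraries, 0 by title and 0 to 18 with 1 library left out, and E2F-related regulators 2 with DESeq2, 2 with no filter, 3 with the block, 3 without the disputed libraries and 0 to 6 with 1 library left out. By title the log2 fold change was -0.26 for YAP1 and -0.22 for WWTR1, past no threshold, and with 1 library left out -0.84 to -0.77 and -0.75 to -0.62.

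Of 293 values over 20 named members, 257 kept direction and side of the threshold, 32 passed it in addition and 4 turned sign, none of them past the threshold. These were MCM10 without siCtrl replicate 1 (0.033, range -1.03 to 0.033), RPA1 without siYAP/TAZ replicate 1 (0.063, range -0.073 to 0.063) and ORC1 without siCtrl replicate 2 (-0.024) or siYAP/TAZ replicate 1 (-0.11, range -0.11 to 0.39). The cause was not tested. Pairing by the block changed no call of a member other than the 11 named in the report. The counts of POLD1, 2 to 17 per library, gave it a wide interval.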

Other observations

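PECAM1, an endothelial marker, was at 1.72, 1.23 and 1.01 CPM in siCtrl, against 3.17, 9.59 and 4.90 CPM in siYAP/TAZ (log2 fold change 2.10, SE 0.53, adjusted p = 0.0785 by edgeR, 0.0245 with the replicate block and 0.0529 without siCtrl replicate 2). The endothelial and immune markers summed to 7.04 to 13.6 CPM in siCtrl and 9.52 to 18.8 CPM in siYAP/TAZ, with CD3E at 0 in 5 of 6 libraries.

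ACTB, the cytoskeletal actin often used as a reference gene, was at 643, 409 and 761 CPM in siCtrl, against 315, 256 and 310 CPM in siYAP/TAZ, and fell with a log2 fold change of -1.04 (adjusted p = 0.0477, SE 0.22), the only one of 8 housekeeping genes called with all 6 libraries. The call held without siCtrl replicate 2 (adjusted p = 0.000960) and with the block (0.00145), but no gene of the list was called with library size alone (smallest adjusted p 0.0537), over genes averaging 50 counts or more (0.0567), with the groups of the titles (0.898) or without any 1 other library (0.0905 or more). In siCtrl replicate 2 it was the lowest control and still above every knockdown. B2M, an antigen presentation protein on the same list, was at 1580.5, 2704 and 1775 CPM against 2344, 3036 and 2902 CPM (adjusted p = 0.334), and was called higher with the block (0.0346) and without siCtrl replicate 2 (0.0219). The epithelial markers LAMB3 and KRT5 had adjusted p of 0.0918 and 0.131, the fibroblast marker PDGFRA was at 154 to 183 CPM in all libraries with COL1A2 and COL3A1 at 0, and CD14 had an adjusted p of 0.621.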
